A study of Mus musculus with 6 samples.

Results

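Genes of vesicle traffic were followed in the mammary gland of mice with a transgene for excess luteinizing hormone (LH), a signal from the pituitary to the gonads. A gene was a member if its symbol began with Rab, Sec, Vamp, Stx or Arf followed directly by a digit, or named a subunit of the coatomer (Copa, Copb1, Copb2, Cope, Copg1, Copg2, Copz1 or Copz2). The rule itself used symbols alone and no measured value, though it was set with earlier results of these data known. It found 121 of 12488 probe sets, for 88 of 8251 genes. Of these, 51 probe sets had Rab symbols, 27 Sec, 12 Vamp, 12 Stx, 9 Arf and 10 Cop, and Copg2 had none.

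Both groups were virgin F1 CF-1/FVB mice, 16 weeks old, and RNA came from thoracic mammary glands. The wild type group and the LH transgenic group each had 3 Affymetrix arrays, one per pool of RNA from 3 mice, so that each group held 9 mice. The labels name the transgene product only, and the promoter that drives it is not given in the sources used here. A pool hides the spread between its mice, so p-values measure the spread between pools. Signals are on a linear scale, each difference subtracts the wild type mean from the LH transgenic one after log2(signal + 79.7), and "called" means a Benjamini-Hochberg adjusted p under 0.05 in limma over all 7453 probe sets tested. Probe sets with a mean signal under 336 were not tested.

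Proteins bound for secretion enter the endoplasmic reticulum through the Sec61 channel, leave it in vesicles with a COPII coat, and are sorted in the Golgi, where Arf proteins recruit the COPI coat, or coatomer. Rab proteins are small GTPases that mark each compartment and recruit the motors and tethers for the next step. SNARE proteins then fuse the membranes, with a vesicle SNARE such as a Vamp protein pairing with target SNAREs such as the syntaxins (Stx). In the mammary gland this route carries casein and other milk proteins to the apical membrane of alveolar cells, while fat cells use a related set of proteins to move glucose transporters to their surface.

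In the LH transgenic glands 19 of the 95 tested member probe sets rose and 5 fell, and 71 were not called. The rises lay in 16 genes and the falls in 5. That is 20% called higher and 5.26% called lower, against 10.5% and 10.8% of all tested probe sets. The median difference was 0.13 over the tested members and 0.02 over all tested probe sets. The groups did not overlap for 30 of the 95 (31.6%) with LH transgenic higher, against 20.6% of all, and for 8 (8.42%) with LH transgenic lower, against 19.8%. The members were brighter than most, with a median signal of 2389 against 1510 for all tested probe sets. These shares describe the members and were not tested as a list. In RNA of a gland of mixed cells, fewer cells of a type and less RNA per cell cannot be told apart.

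Single pools moved these counts. Without wild type pool 3, 8 members were higher (8.42%, against 5.82% of all) and 4 lower (4.21%, against 6.80%). Without LH transgenic pool 1, 10 were higher (10.5%, against 6.92% of all) and 4 lower (4.21%, against 8.33%). The number lower was 3 (3.16%, against 7.51% to 9.19% of all) when wild type pool 1, wild type pool 2 or the second LH transgenic pool was omitted. It was 8 (8.42%, against 12%) when LH transgenic pool 3 was. Calls over all probe sets thus changed with the same pools. After quantile normalization 19 members were higher and 5 lower, against 10.2% and 11.1% of all. The direction of the counts rests on the scale. The 9 bacterial control probe sets, which detect transcripts added in fixed amount at hybridisation, were brighter by 0.69 (log2) in the LH transgenic arrays. With each array divided by them, the median of all tested probe sets was -0.62 and that of the members -0.54. On that scale 0 members were called higher (against 1.88% of all) and 43 lower (45.3% of those tested, against 51.8% of all). The rises below are therefore relative to the other genes of each array. That scale lowers all genes nearly alike, so genes that fell on the deposited scale stay lower on it by construction. For those that rose, the value on that scale follows each one.

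**Figure D1:**
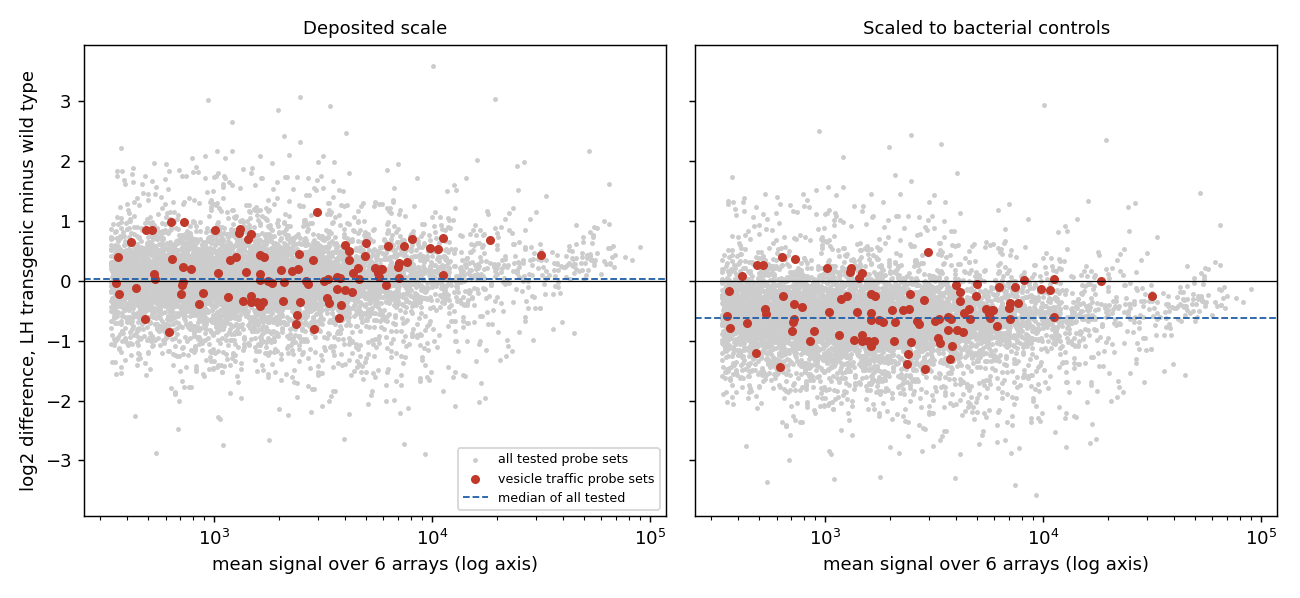
Log2 difference (LH transgenic minus wild type) against mean signal over 6 arrays (log axis) for all 7453 tested probe sets (grey) and the 95 tested member probe sets (red), on the deposited scale (left) and after scaling to the bacterial controls (right). The dashed line is the median of all tested probe sets, 0.02 on the left and -0.62 on the right, and the members move down with it, from a median of 0.13 to -0.54.

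At the entry to the endoplasmic reticulum the clearest rise was in Sec61a1, the pore-forming subunit of the translocation channel. Its brighter probe set had signals of 8255.8, 9134.4 and 8113.2 in wild type pools 1 to 3 and 13161.2, 14839.2 and 13840.5 in the LH transgenic pools. The groups lay far apart, with a difference of 0.71 (SE 0.12, adjusted p 0.00299). The second probe set, at 6986.8, 6463.6 and 5183.9 against 9552.2, 9733.7 and 11029.1, gave 0.70 (adjusted p 0.00795). The call was made under 17 of 18 other settings (adjusted p 0.00218 to 0.933) and lost on the bacterial scale, where the difference was 0.02.

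The other genes of this step were not called. Sec61b, a small subunit of the same channel, had 5499.6, 5999.5 and 6140.0 in wild type and 10658.5, 10531.2 and 6096.2 in the LH transgenic pools. LH transgenic pools 1 and 2 were well above the wild type range and pool 3 lay inside it, so that the difference of 0.58 (SE 0.20) had an adjusted p of 0.0719, and 0.84 (adjusted p 0.00208) without pool 3. Sec61a2, a second form of the pore subunit, went the other way in the same 2 pools, with 1936.1, 1556.5 and 1811.5 against 1116.7, 1189.9 and 1871.5 (difference -0.36, adjusted p 0.234, and -0.58 at adjusted p 0.0264 without LH transgenic pool 3). Sec11c, a catalytic subunit of signal peptidase, was at 1084 ± 116.0 (SD, n = 3) and 1450 ± 157.9, with no overlap and an adjusted p of 0.0902. Its relative Sec11a (0.13), the 3 probe sets of Sec62 (0.03 to 0.23) and Sec63 (0.39), both partners of the channel, completed the step. Its 10 probe sets stand for 7 genes, and 9 had differences above 0 and 1 below on the deposited scale. Of all 7453 tested probe sets 3933 were above 0.

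Among the 7 tested probe sets of COPII, the coat of vesicles that leave the endoplasmic reticulum, 3 had an unadjusted p under 0.05. That share was not counted over all tested probe sets. None of the 7 was called by limma. Sec23a, part of the inner coat, came nearest. One of its probe sets had 3772.8, 3535.6 and 4132.4 in wild type and 2808.5, 2987.2 and 2969.0 in the LH transgenic pools, without overlap (difference -0.37, SE 0.12, adjusted p 0.0580). The other had a difference of -0.85 (SE 0.27, adjusted p 0.0507), and -1.09 (adjusted p 0.0314) without wild type pool 3 and -1.06 (adjusted p 0.0367) without LH transgenic pool 1. It was also called after quantile normalization (adjusted p 0.0411) or median centring (0.0411), with the larger pseudocount (0.0483) and with robust eBayes (0.0472). Sec13, of the outer coat, had 3630.3, 4373.9 and 4712.8 against 6047.2, 5404.5 and 5527.6, again without overlap (difference 0.42, adjusted p 0.0551). Sec16a, the scaffold of exit sites and the brightest of this coat, had 5534 ± 747.6 and 6334 ± 485.3 (difference 0.20, adjusted p 0.339). Sec23b, Sec31a and Sec24c lay between -0.14 and 0.17.

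In the coatomer 1 of 9 tested probe sets was called higher (11.1%, against 10.5% of all). Copb2, the beta-prime subunit that binds cargo tails, rose from 9218.1, 9733.4 and 7363.0 to 12730.3, 13474.3 and 11887.6. All LH transgenic pools were above all wild type pools (difference 0.54, SE 0.14, adjusted p 0.0205, and -0.15 on the bacterial scale). A dimmer Copb2 probe set had 0.40 (adjusted p 0.140) with overlap. The call was lost without wild type pool 3 (0.42, adjusted p 0.0750), LH transgenic pool 1 (0.54, 0.0597) or LH transgenic pool 2 (0.49, 0.0582), within a range of 0.0164 to 0.59 over 18 settings. The other subunits were spread on both sides of 0, with Cope at 0.34, Copz1 at 0.31, Copa at 0.09, Copb1 at -0.00, Copz2 at -0.35 and Copg1 at -0.43 and -0.35. Copa, the brightest of them at 10986 ± 1464 and 11628 ± 621.1, had an adjusted p of 0.676.

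Of the 6 tested probe sets of Arf GTPases 2 rose (33.3%, against 10.5% of all). Arf1, which recruits the coatomer to the Golgi, was the brightest of all the members, with 27475.0, 27519.7 and 25524.8 in wild type and 34117.7, 37787.5 and 37153.9 in LH transgenic pools. The pools of each group lay close together and apart from the other group (difference 0.44, SE 0.10, adjusted p 0.0164, and -0.25 on the bacterial scale). Its call was lost without wild type pool 3 (0.40, adjusted p 0.0668) and after quantile normalization (0.27, 0.0863), within a range of 0.0124 to 0.27 over 18 settings. Arf6, an Arf of the plasma membrane and endosomes, had 1240.9, 835.8 and 656.5 against 1456.1, 1366.2 and 2354.7. LH transgenic pool 3 stood above the rest, and the difference of 0.87 (SE 0.26, adjusted p 0.0386, and 0.22 on the bacterial scale) was lost without wild type pool 2 (0.83, adjusted p 0.0933), wild type pool 3 (0.67, 0.135), LH transgenic pool 1 (0.96, 0.0660) or LH transgenic pool 3 (0.63, 0.0949), within 0.0223 to 0.463 over 18 settings. A dimmer Arf6 probe set, below the filter and not tested, had 459.1, 202.2 and 291.9 against 364.6, 164.0 and 382.5, with overlap. The tested probe sets of Arf3 disagreed, at 0.44 and -0.35, and neither was called. Arf4 (0.30) and Arf5 (-0.08) were not called, though Arf4 was without LH transgenic pool 2 (0.47, adjusted p 0.0364).

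**Figure D2:**
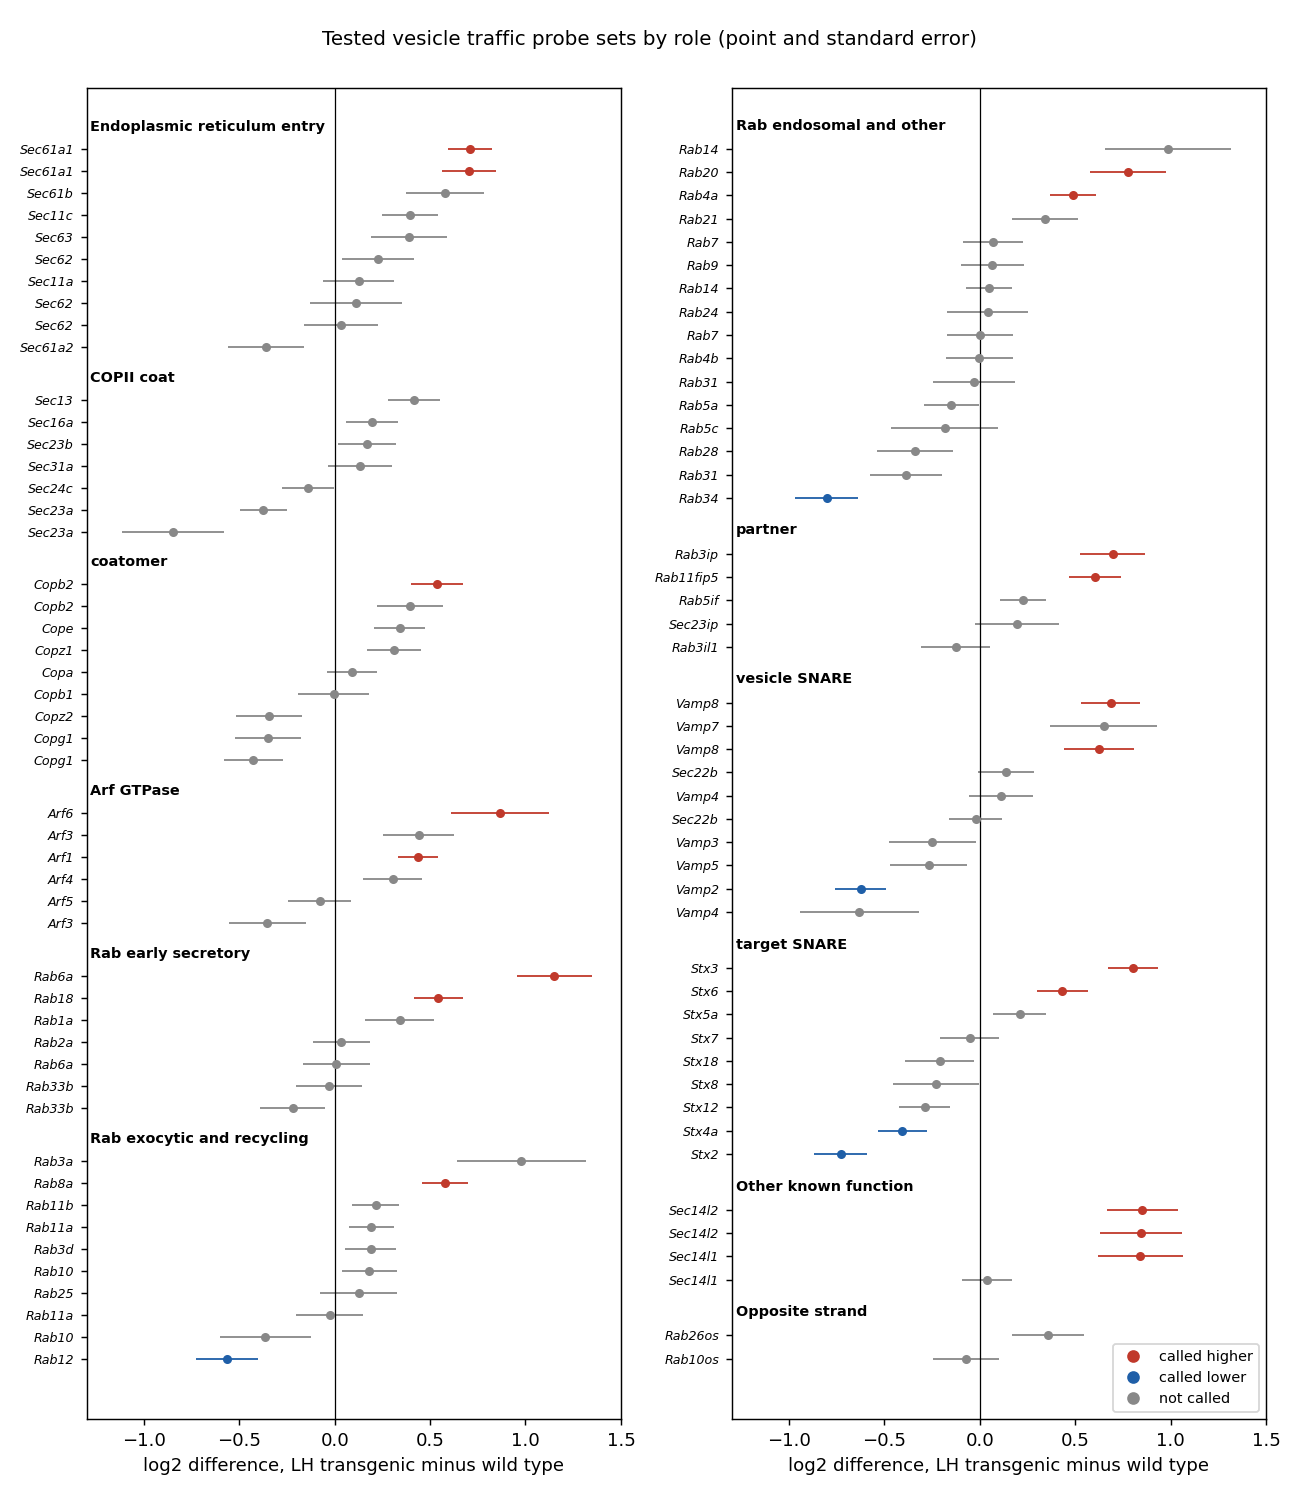
Log2 difference (LH transgenic minus wild type) on the deposited scale with its standard error for the 95 tested member probe sets, grouped by the step of the route, with 19 called higher in red, 5 called lower in blue and 71 not called in grey. Genes with several tested probe sets appear once for each, and Rab6a at 1.15 and 0.01 shows the widest gap within a gene. Of the genes that rose, Arf1, Copb2, Rab11fip5, Rab18, Rab4a, Rab8a, Stx6 and Vamp8 had values below 0 on the bacterial scale.

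Of 44 probe sets of Rab GTPases (33 genes), 33 (26 genes) were tested. Of these 5 rose (15.2%, against 10.5% of all) and 2 fell (6.06%, against 10.8%), with a median of 0.05. Among those of the early secretory route, Rab6a, which works at the Golgi in both directions, had the largest called difference of the members. Its called probe set had 1337.8, 2146.1 and 2001.9 in wild type and 4021.5, 3505.8 and 4811.0 in LH transgenic pools. Every LH transgenic pool was above every wild type pool, with a difference of 1.15 (SE 0.20, adjusted p 0.00372, and 0.48 on the bacterial scale). The second Rab6a probe set had 1866.3, 1292.4 and 1714.6 against 1851.4, 1662.4 and 1367.6, with full overlap and a difference of 0.01 (adjusted p 0.981), so the rise rests on one of the probe sets. The called one kept its call under 17 of 18 other settings and lost it on the bacterial scale (adjusted p 0.00265 to 0.105).

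Rab18, a Rab of the endoplasmic reticulum and of lipid droplets, rose from 7764.9, 8756.1 and 7394.8 to 12155.8, 10445.7 and 12380.1. The groups did not overlap, and the difference was 0.54 (SE 0.13, adjusted p 0.0142, and -0.14 on the bacterial scale). It was not called without wild type pool 1 (0.53, adjusted p 0.0549), wild type pool 3 (0.49, 0.0595) or LH transgenic pool 1 (0.51, 0.0518), within 0.00938 to 0.612 over 18 settings. Rab1a (0.34) and Rab2a (0.03), which serve transport between endoplasmic reticulum and Golgi, and the 2 probe sets of Rab33b (-0.03 and -0.22) were not called.

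Among the Rabs of exocytosis and recycling, Rab8a, which carries cargo from the Golgi to the plasma membrane, rose from 5145.0, 5182.7 and 4805.9 to 7563.1, 8235.9 and 6937.3. The difference of 0.58 (SE 0.12, adjusted p 0.00931, and -0.10 on the bacterial scale) was several times the spread of either group and was called under 16 of 18 other settings (adjusted p 0.00462 to 0.72). Rab12, of recycling endosomes, fell from 2731.9, 2828.7 and 3018.4 to 1826.0, 1577.1 and 2402.6. LH transgenic pool 3 was nearest to wild type, and the difference of -0.56 (SE 0.16, adjusted p 0.0370) was not called without wild type pool 1 (-0.60, adjusted p 0.0830), wild type pool 2 (-0.57, 0.0872), wild type pool 3 (-0.53, 0.116), LH transgenic pool 1 (-0.53, 0.105) or LH transgenic pool 2 (-0.43, 0.0993), within 3.24e-05 to 0.404 over 18 settings. With the muscle level as a covariate it was -0.26 (adjusted p 0.404). Rab3a, a Rab of regulated secretion, was spread widely in wild type (853.8, 434.6 and 224.9 against 965.3, 1034.4 and 882.0), so that 0.98 (SE 0.34) had an adjusted p of 0.0691, and 1.39 (adjusted p 0.00997) without wild type pool 1. Rab3d, a Rab of secretory granules in exocrine cells, had 2263 ± 210.1 and 2587 ± 221.8 (difference 0.19, adjusted p 0.362). Rab11a, Rab11b and Rab25, of recycling endosomes, lay between -0.03 and 0.22.

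Of the Rabs of endosomes, lysosomes and other sites 2 rose and 1 fell. Rab34, a Rab that positions lysosomes and takes part in building cilia, fell from 3223.9, 3652.0 and 4184.5 to 1735.6, 2031.5 and 2501.5. All LH transgenic pools were below all wild type pools, with a difference of -0.80 (SE 0.17, adjusted p 0.00884), and the call was lost only once the skeletal muscle level entered the fit (-0.52, adjusted p 0.128) among 18 settings (4.51e-07 to 0.128). Rab20, of endosomes and phagosomes, rose from 1318.1, 1195.5 and 749.2 to 1811.6, 2009.2 and 1799.7. Wild type pool 3 was lowest, and the difference of 0.78 (SE 0.20, adjusted p 0.0218, and 0.12 on the bacterial scale) was not called without it (0.55, adjusted p 0.0549) or without LH transgenic pool 1 (0.80, 0.0581) or LH transgenic pool 2 (0.73, 0.0611), within 0.0189 to 0.683 over 18 settings. Rab4a, of fast recycling, rose from 3345.0, 3360.2 and 3621.7 to 4953.5, 5127.1 and 4521.3, by 0.49 (SE 0.12, adjusted p 0.0183, and -0.19 on the bacterial scale). Without wild type pool 1 (0.47, adjusted p 0.0730), wild type pool 2 (0.47, 0.0687), LH transgenic pool 1 (0.48, 0.0569) or LH transgenic pool 2 (0.45, 0.0501) it was not called, within 0.00885 to 0.526 over 18 settings.

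The probe sets of Rab14 had 0.05 and 0.99, neither called, and the dim one ranged from 227.7 to 482.5 in wild type and from 605.5 to 1381.8 in LH transgenic pools. Rab5a, Rab5c and Rab7, the Rabs of early and late endosomes, had differences from -0.18 to 0.07 and adjusted p-values of at least 0.499.

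Of 5 partner genes 2 rose (40% of their 5 tested probe sets, against 10.5% of all), and both act on Rabs of exocytosis and recycling. Rab3ip, an exchange factor that activates Rab8, rose from 1152.9, 990.5 and 1046.2 to 2006.4, 1985.6 and 1390.2, by 0.70 (SE 0.17, adjusted p 0.0176, and 0.04 on the bacterial scale). LH transgenic pool 3 was the lowest of its group, yet above all wild type pools. The call was lost without wild type pool 2 (0.65, adjusted p 0.0587), wild type pool 3 (0.69, 0.0600), LH transgenic pool 1 (0.61, 0.0679) or LH transgenic pool 2 (0.62, 0.0548), within 0.00429 to 0.885 over 18 settings. With the muscle level as a covariate it was 0.35 (adjusted p 0.253). Rab11fip5, an effector that links Rab11 vesicles to their transport, rose from 3210.7, 3397.7 and 2827.9 to 4460.9, 5436.3 and 4567.0, by 0.60 (SE 0.14, adjusted p 0.0130, and -0.07 on the bacterial scale), and was not called without wild type pool 3 (0.53, adjusted p 0.0565), within 0.0104 to 0.806 over 18 settings. Rab5if (0.23), Sec23ip (0.19) and Rab3il1 (-0.13) were not called.

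**Figure D3:**
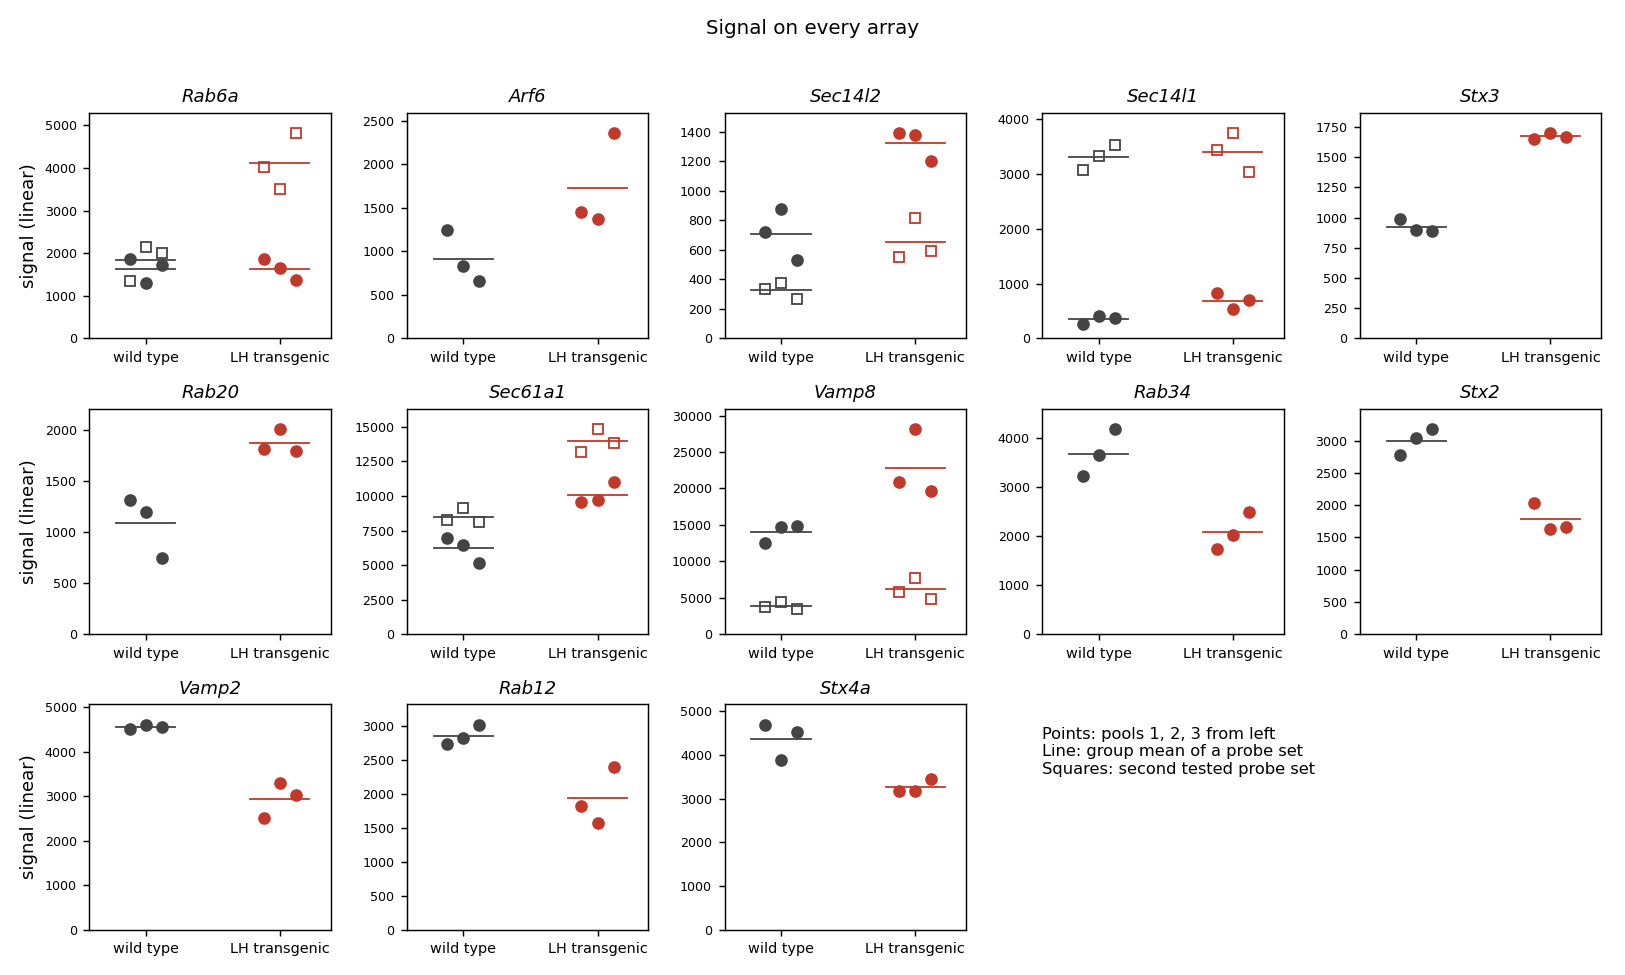
Linear signal on each of the 6 arrays, wild type in grey and LH transgenic in red, for the 6 called genes with the largest rise, for Sec61a1 and Vamp8 (both probe sets called) and for the 5 called genes that fell. Lines are group means and squares a second tested probe set, and in the called probe set of each gene all LH transgenic pools lie on one side of all wild type pools. On the bacterial scale Vamp8 had a difference of -0.00.

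Called SNAREs went in both directions. Of 19 tested SNARE probe sets 4 rose (21.1%, against 10.5% of all) and 3 fell (15.8%, against 10.8%), with a median of -0.05. Vamp8, a vesicle SNARE of exocytosis in secretory gland cells, rose in both of its probe sets. The brighter one had 12570.3, 14678.9 and 14890.6 in wild type and 20861.9, 28132.2 and 19573.7 in LH transgenic pools, a difference of 0.69 (SE 0.15, adjusted p 0.0127, and -0.00 on the bacterial scale). The other had 0.62 (adjusted p 0.0379). LH transgenic pool 2 was highest in both. The names of both end in _f_at, which Affymetrix gives to probe sets whose probes may also match related sequences. Without wild type pool 1 the brighter one had 0.61 (adjusted p 0.0512), within 0.00742 to 0.992 over 18 settings, and the other lost its call without wild type pool 1 (0.60, adjusted p 0.113), wild type pool 3 (0.55, 0.126), LH transgenic pool 1 (0.65, 0.0857) or LH transgenic pool 2 (0.44, 0.0959).

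Stx3, a target SNARE of the apical membrane of epithelia, rose from 990.0, 897.3 and 887.9 to 1653.8, 1696.3 and 1663.6. Both groups were tight, and the difference of 0.80 (SE 0.13, adjusted p 0.00310, and 0.15 on the bacterial scale) was called under 17 of 18 other settings (adjusted p 0.00206 to 0.612). Dimmer Stx3 probe sets, below the filter and not tested, overlapped between groups. One had 277.6, 158.5 and 301.2 against 537.5, 265.8 and 346.7, and the other 44.1, 17 and 25.6 against 22.6, 23.9 and 21.4. Stx6, of the trans-Golgi network and endosomes, rose from 1364.7, 1510.0 and 1264.3 to 1999.4, 1822.2 and 1833.4, by 0.43 (SE 0.13, adjusted p 0.0469, and -0.23 on the bacterial scale). This call lay at the threshold. It was made under 6 of 18 other settings (adjusted p 0.0300 to 0.450) and lost with any array left out, where the difference ranged from 0.37 without wild type pool 3 to 0.49 without wild type pool 2.

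Vamp2, the vesicle SNARE that brings glucose transporters to the surface of fat and muscle cells, fell from 4498.3, 4599.1 and 4557.4 to 2510.8, 3295.6 and 3016.8. The wild type pools were nearly equal, and the difference was -0.63 (SE 0.14, adjusted p 0.0110). The call was lost only once the skeletal muscle level entered the fit (-0.54, adjusted p 0.0968) among 18 settings (8.5e-06 to 0.0968). A dim Vamp2 probe set, below the filter and not tested, had 39.8, 221.6 and 195.5 against 144.1, 174.8 and 177.9, with overlap. Stx4a, the usual partner of Vamp2 at the plasma membrane, fell from 4690.2, 3893.0 and 4531.0 to 3183.9, 3166.2 and 3457.4, by 0.41 on the log2 scale (SE 0.13, adjusted p 0.0490). That call too lay at the threshold and was lost after quantile normalization (-0.38, adjusted p 0.0656) and without wild type pool 1 (-0.36, 0.172), wild type pool 2 (-0.49, 0.0578), wild type pool 3 (-0.38, 0.142), LH transgenic pool 1 (-0.39, 0.121) or LH transgenic pool 2 (-0.39, 0.103), within 0.000245 to 0.242 over 18 settings.

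Stx2, also known as epimorphin and a target SNARE of the plasma membrane, fell from 2773.1, 3038.7 and 3179.2 to 2041.1, 1637.6 and 1663.6. The difference was -0.73 (SE 0.14, adjusted p 0.00613), and it was called under all 18 other settings (adjusted p 2.05e-06 to 0.0303), one of which, the bacterial scale, lowers every gene. Rab6a, Sec61a1 and Stx3 lost their calls on that scale alone. The other SNAREs were not called, with Vamp7 at 0.65 (adjusted p 0.134), Stx5a at 0.21, Sec22b at -0.02 and 0.14, Vamp3 at -0.25, Vamp5 at -0.27, Stx12 at -0.29 and Vamp4 at 0.11 and -0.63.

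Promoters of 79 of the 88 members were found in RefSeq's table for GRCm38.p6 (the first listed start of each gene, 250 bases before it to 50 after). Their median GC content was 63.3%, against 52.7% for all 27025 promoters of the same length, with a median of 21 CG pairs against 7. Stx3 (44.0%) had the lowest GC content of the 79 and Vamp8 (46.7%) the third lowest, while Stx4a and Stx2 had 64.3%. Stx6, which also rose, had 63.3%, and the medians were 63.8% over the 12 promoters found for genes that rose and 64.3% over the 4 for genes that fell. The choice of Vamp8, Stx3 and Stx4a was made with their values known. The 120 bases before the start are shown for these SNAREs, with CG pairs in capitals, of which there are 1 in Vamp8, 3 in Stx3 and 16 in Stx4a.
Vamp8 (chr6:72390668-72390787, minus strand): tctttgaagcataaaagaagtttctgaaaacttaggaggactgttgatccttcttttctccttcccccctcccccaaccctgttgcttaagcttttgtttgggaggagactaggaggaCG
Stx3 (chr19:11819404-11819523, minus strand): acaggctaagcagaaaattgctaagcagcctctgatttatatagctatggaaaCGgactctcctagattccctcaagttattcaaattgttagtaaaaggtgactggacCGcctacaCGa
Stx4a (chr7:127841688-127841807, plus strand): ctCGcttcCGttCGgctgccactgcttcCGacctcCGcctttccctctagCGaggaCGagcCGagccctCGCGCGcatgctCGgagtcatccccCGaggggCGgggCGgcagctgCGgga

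Motifs tied to secretory stress and lysosome control were searched on both strands of the same windows. TGACGTG, the core of an element of the unfolded protein response, lay in 6 of 79 member promoters (7.59%) against 1.99% of all, and in 2 of the 12 promoters found for genes that rose and 0 of the 4 for genes that fell. CACGTG, an E-box, lay in 12 of 79 (15.2%) against 7.24% of all, in 2 of the 12 and 0 of the 4. CCACG, which can overlap either, lay in 44 of 79 (55.7%) against 32.7% of all, in 5 of the 12 and 3 of the 4. Each of these motifs contains a CG pair, and member promoters had a median of 21 CG pairs against 7 in all. The part of base composition in the higher shares was not tested. Among the 51 promoters of tested members that were not called, TGACGTG lay in 4 (7.84%), CACGTG in 9 (17.6%) and CCACG in 30 (58.8%). The full endoplasmic reticulum stress element, CCAAT and CCACG with 9 bases between them, lay in 0 of 79 and in 0.13% of all. The matches of the first pair of motifs in genes that rose are shown with 30 bases around them and the motif, on either strand, in capitals. Those of Copb2 and Arf1, which belong to the same coat step, lie at the start itself (-6 to 1) and at 22 to 28 after it, and those of Stx6 and Rab20 at -85 and -46.
Copb2 (chr9:98563714-98563743, plus strand): cccggaagttcCACGTCAgtgggttggccg
Arf1 (chr11:59228228-59228257, minus strand): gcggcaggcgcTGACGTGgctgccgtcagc
Stx6 (chr1:155158606-155158635, plus strand): ggcgatctgggtCACGTGagcctgagtgcg
Rab20 (chr8:11478669-11478698, minus strand): cggccgggcaccCACGTGgtcgcagggctg

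Related genes were also set against each other within each array, since the log2 ratio of a pair does not move with the scale of the array beyond the effect of the pseudocount. Of 17 listed pairs, both genes were tested in 12. An exact two-sided permutation over 3 and 3 arrays cannot go below p = 0.1, and after adjustment over the 12 pairs the lowest value was 0.24, so no pair could pass 0.05. The change in Stx3 over Stx4a was the tightest, from -2.16, -2.02 and -2.25 to -0.91, -0.87 and -1.02, a shift of 1.21 (SE 0.08, exact p 0.1). Since Stx3 was called higher and Stx4a lower, their ratio had to shift and adds no separate support. Sec61a1 over Sec61a2 went from 2.05, 2.49 and 2.12 to 3.47, 3.55 and 2.83 (1.07, SE 0.27, exact p 0.1).

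The shifts of Copz1 over Copz2 (0.66, SE 0.28), Rab4a over Rab4b (0.49, SE 0.15) and Sec23a over Sec23b (-0.54, SE 0.20) were smaller, also without overlap between groups (exact p 0.1 for each). Other pairs overlapped, such as Rab11a over Rab11b (-0.02, SE 0.12) and Arf1 over Arf3 (-0.00, SE 0.25). The last pair used the brighter tested Arf3 probe set (0.44), and its value depends on that choice, since the other had -0.35. For Vamp8 over Vamp2 and Stx3 over Stx2, chosen after their values were seen, the shifts were 1.31 (SE 0.14) and 1.53 (SE 0.15).

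**Figure D4:**
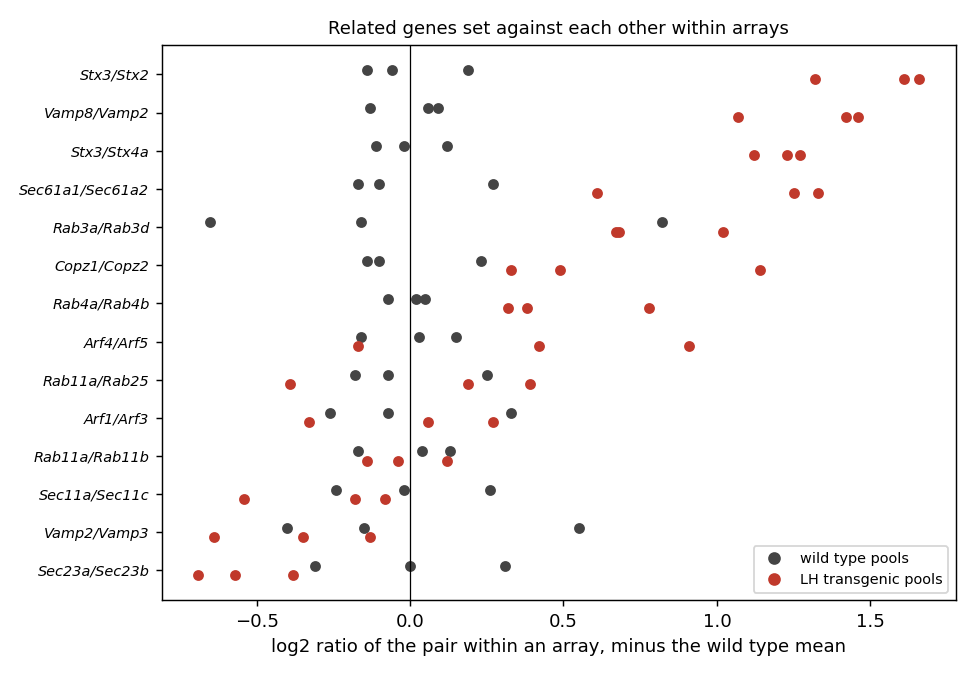
Log2 ratio of 2 related genes within an array, minus the mean of the wild type pools for that pair, with wild type pools in grey and LH transgenic pools in red. Stx3 over Stx4a shifts by 1.21 and Sec61a1 over Sec61a2 by 1.07 with no overlap between groups, while Rab11a over Rab11b (-0.02) stays within the wild type spread. Vamp8 over Vamp2 (1.31) and Stx3 over Stx2 (1.53), also drawn, were chosen after their values were seen.

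A few symbols that match the rule name genes outside vesicle traffic. Sec14l2, a lipid-binding protein, rose in both probe sets. The brighter one had 718.1, 878.9 and 532.8 in wild type and 1390.0, 1377.7 and 1205.9 in LH transgenic pools (0.85, SE 0.19, adjusted p 0.0113, and 0.22 on the bacterial scale), and was called under 16 of 18 other settings (0.00884 to 0.478). The dimmer one (0.85, adjusted p 0.0209) was not called without wild type pool 1 (0.87, adjusted p 0.0531), wild type pool 3 (0.73, 0.0755) or LH transgenic pool 2 (0.69, 0.0716). Its relative Sec14l1 rose in a dim probe set, from 262.1, 410.6 and 375.8 to 830.9, 541.8 and 695.5 (0.84, SE 0.22, adjusted p 0.0250, and 0.26 on the bacterial scale), while a brighter one had 0.04 (adjusted p 0.876).

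The Sec14l1 call was lost without wild type pool 1 (0.69, adjusted p 0.0845), wild type pool 3 (0.89, 0.0576), LH transgenic pool 1 (0.71, 0.0932) or LH transgenic pool 3 (0.83, 0.0547), within 0.0147 to 0.457 over 16 settings. Rab10os (-0.07) and Rab26os (0.36), transcripts from the strand opposite a Rab gene, were not called. Without the matches outside the route, 16 of 89 tested probe sets rose (18%, against 10.5% of all) and 5 fell (5.62%, against 10.8%).

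Several probe sets of 1 gene did not always tell the same story. Of 18 genes with several tested probe sets, Sec61a1, Vamp8 and Sec14l2 were called in the same direction by all of them, Rab6a, Copb2 and Sec14l1 by some, and none in both directions. Signs differed in Arf3, Rab7, Rab10, Rab11a, Sec22b and Vamp4, none of them called. The 26 untested probe sets had signals between 5.8 and 557.6. Arf2, Rab3b, Rab5b, Rab8b, Rab17, Rab23, Rab33a, Rab35, Sec1, Sec24b, Stx1a and Vamp1 had no tested probe set at all.

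Marker genes of several cell types differed in the same comparison. Of 13 markers of mammary epithelium and milk 9 were called higher, and their summed signal was 265850 to 423710 in wild type and 620524 to 744496 in LH transgenic pools. Most of these were milk protein genes, with Krt19 (0.52) and Elf5 (1.21) beside them, while the structural epithelial markers Krt8 (0.27), Krt18 (0.04) and Epcam (0.19) were not called and overlapped. Of 8 macrophage markers 4 were higher (28204 to 44802 against 55953 to 65738), and of 5 tested basal markers 1 (16499 to 20377 against 23410 to 26076). Lower were 8 of 10 fat cell markers (155220 to 179438 against 77896 to 89184), 7 of 9 endothelial (32042 to 37639 against 14698 to 17577) and 5 of 7 fibroblast markers (109028 to 144932 against 74690 to 98782). None of 4 tested B and T cell markers was called (4886 to 7387 against 2788 to 5827). Each sum covers all markers of its list on the array at their brightest probe set, also those not tested. All values in the table were above 0, so no marker was at 0. The part of these shifts in the rise of Sec61a1, Stx3 and Vamp8 or in the fall of Vamp2, Stx2, Stx4a and Rab34 was not tested.

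Of 13 tested skeletal muscle markers 6 were lower. The summed signal of all 14 on the array was 105476 to 119431 in wild type and 22471, 26226 and 94424 in LH transgenic pools 1, 2 and 3. Among the members, LH transgenic pool 3 lay inside the wild type range in 9 tested probe sets where pools 1 and 2 lay outside it. Pools 1 and 2 lay below in Rab3il1, Rab10, Rab33b, Sec61a2, Copg1 and Rab28 and above in Sec61b, Arf3 and Rab11b. The same pattern held for LH transgenic pool 1 in 5 probe sets and for pool 2 in 7, so the counts do not set pool 3 apart. The share of this pattern over all tested probe sets was not counted. Without LH transgenic pool 3, Sec61b was called higher and Sec61a2, Rab28 (-0.55, adjusted p 0.0417) and a Rab10 probe set (-0.64, 0.0339) lower. With the muscle level as a covariate 7 members were called higher (7.37%, against 4.83% of all) and 1 lower (1.05%, against 5.94%). These were both probe sets of Sec61a1, with Rab6a, Stx3, Arf6, Copz1 (0.58, adjusted p 0.05 after rounding) and the dim Rab14 probe set (1.72, adjusted p 0.0241), and Stx2 on the lower side. That covariate ended the calls of Vamp8 (0.52 and 0.35), Arf1 (0.49), Rab4a (0.39), Rab20 (0.75), Copb2 (0.47), Rab18 (0.63), Rab8a (0.47), Rab11fip5 (0.57), Sec14l1 (0.83), Sec14l2 (0.75 and 0.80), Stx6 (0.39) and Stx4a (-0.34), beside those of Rab3ip, Rab12, Rab34 and Vamp2 given above. Without the covariate Arf1 had 0.44 and Rab18 0.54, so their differences grew although the calls were lost. The others that lost calls moved toward 0, Rab20 (0.78 without it) and Sec14l1 (0.84) only slightly. The muscle level itself differed between the groups, which widens the error of the group difference in this fit. With the covariate Arf6 had 1.343.

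Vesicle traffic genes with other symbols were listed by their function. Of 135 tested genes at their brightest probe set 15 rose and 10 fell, with a median of 0.07, where 10.5% and 10.8% of all tested probe sets were called higher and lower. In the fit with 1 probe set per gene, 17 rose and 11 fell, where 10.2% and 12.2% of all 5731 genes did. On the bacterial scale 0 rose and 63 fell, where 1.88% and 51.8% of all tested probe sets did. Without wild type pool 1, 5 rose and 7 fell (6.64% and 7.51% of all). Without wild type pool 3 the counts were 8 and 6 (5.82% and 6.80% of all), and without wild type pool 2 they were 10 and 5 (8.02% and 8.17%).

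Of 20 genes of endoplasmic reticulum entry 5 rose and none fell, with a median of 0.28 (-0.40 on the bacterial scale). The summed signal of the 23 genes of this list on the array, tested or not, was 100232 to 111070 in wild type and 130040 to 139018 in LH transgenic pools. Ssr2, of the complex that flanks the Sec61 channel, rose from 3614 ± 416.5 to 6173 ± 332.4 (0.76, adjusted p 0.00388, and 0.09 on the bacterial scale). Ssr1, of the same complex, had 0.79 and was not called without wild type pool 1 (0.82), wild type pool 3 (0.60), LH transgenic pool 1 (0.66) or LH transgenic pool 2 (0.77). Srp19, of the signal recognition particle, had 0.85, not called without wild type pool 1 (0.80). Hspa5, the main chaperone inside the endoplasmic reticulum, and Dnajc1, one of its partners, rose by 0.63 and 0.69 (-0.06 and 0.03 on the bacterial scale).

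Of 29 other coat, cargo receptor and Arf regulator genes 2 rose and 4 fell. Sar1a, the GTPase that starts the COPII coat, fell from 15668 ± 1117 to 9828 ± 1106 (-0.67, adjusted p 0.00554), and Cnih1, a cargo receptor of that coat, fell from 5926 ± 820.5 to 3620 ± 421.0 (-0.70, adjusted p 0.0104). Both were called under all 18 other settings, one of which, the bacterial scale, lowers every gene. Tmed9, of a family of cargo receptors, had -0.50 and was not called without wild type pool 2 (-0.46), wild type pool 3 (-0.41), LH transgenic pool 1 (-0.57), LH transgenic pool 2 (-0.48) or LH transgenic pool 3 (-0.45). The other called genes of this list were Arfip2 (0.50), Tmed7 (0.41) and Tmed4 (-0.45), whose calls were lost without any one of the pools except LH transgenic pool 1 for Arfip2 and LH transgenic pool 2 for Tmed4, with differences of 0.37 to 0.52, 0.34 to 0.45 and -0.47 to -0.36.

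Of 27 clathrin and adaptor genes 3 rose and 2 fell. Dab2, an adaptor of endocytosis, rose from 4360 ± 751.3 to 9948 ± 649.9 (1.19, adjusted p 0.000861, and 0.51 on the bacterial scale), and the dynamin gene Dnm1 fell from 3440 ± 141.7 to 2014 ± 315.6 (-0.76, adjusted p 0.00636). Eps15, an endocytic scaffold, had -0.66 and was not called without wild type pool 1 (-0.72), wild type pool 2 (-0.70), wild type pool 3 (-0.56), LH transgenic pool 1 (-0.59) or LH transgenic pool 2 (-0.51). Clta, a clathrin light chain, had 0.55, lost when wild type pool 1 (0.49), LH transgenic pool 1 (0.47) or wild type pool 3 (0.55) was omitted, and Ap3d1, of an adaptor complex, had 0.53, not called without wild type pool 1 (0.49).

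Of 24 Golgi matrix and tether genes 3 rose and 1 fell. Trappc10, of a tethering complex, rose from 1274 ± 95.3 to 2401 ± 426.7 (0.86, adjusted p 0.00489, and 0.20 on the bacterial scale). Exoc4, of the exocyst, had 0.60 and lost its call without wild type pool 1 (0.47), wild type pool 2 (0.60), LH transgenic pool 1 (0.57), LH transgenic pool 2 (0.62) or LH transgenic pool 3 (0.62). Golph3, a Golgi membrane protein, had 0.43 and lost it without wild type pool 1 (0.40), wild type pool 2 (0.46), wild type pool 3 (0.44), LH transgenic pool 1 (0.43) or LH transgenic pool 3 (0.35). The gene that fell was Uso1, a Golgi tether (-0.42), not called without any one of the pools except LH transgenic pool 3 (-0.45 to -0.36 for the others).

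Of 19 other SNAREs and SNARE regulators 2 rose and none fell. Ykt6, a lipid-anchored SNARE, had 0.87 and lost its call without wild type pool 1 (0.72), wild type pool 3 (0.90), LH transgenic pool 1 (0.70) or LH transgenic pool 2 (0.86). Stxbp2, the syntaxin-binding partner of Stx3 in epithelia, went from 2019 ± 200.6 to 2821 ± 343.6 (0.47, adjusted p 0.0477) and lost it without wild type pool 1 (0.52), wild type pool 2 (0.48), wild type pool 3 (0.39), LH transgenic pool 1 (0.45) or LH transgenic pool 2 (0.39). Of 16 Rab cycle helpers none rose and 3 fell. Mlph, which ties a Rab to a myosin motor, fell from 1607 ± 146.1 to 999.6 ± 14.9 (-0.64, adjusted p 0.00991), Dennd5a, an exchange factor, fell by 0.72 on the log2 scale (adjusted p 0.00965), and Rabep1, an effector of Rab5, had -0.94 and lost its call without wild type pool 1 (-0.80), wild type pool 2 (-0.90), LH transgenic pool 1 (-0.91) or LH transgenic pool 2 (-0.81).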

How the data were processed

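The authors deposited one MAS5 signal intensity per probe set and array, per the submitters' processing notes. The version and the build of that step were not given in the sources used here. The trimmed mean (2% off each end) was 1500.8 or 1500.9 on every array and medians were 540.6 to 583.4, so the values were used as deposited. The platform annotation gave 1 gene to 10833 probe sets, several to 396 and none to 1193. The 66 controls were left out of the tests, and 0 of 121 member symbols were changed by a GRCm38.p6 gene table. The pseudocount of 79.7 is the 20th percentile of all values, and the filter of 336 the 40th percentile of mean signals. The pseudocount understates the change of dim genes. The test was limma (lmFit, eBayes with a trend, two-sided, no covariate) with Benjamini-Hochberg adjustment over 7453 probe sets. The labels pair no arrays. Members, lists, pairs and named genes were chosen with earlier results of these data known. Named were called members (up to 12 per direction by size, with the other called genes added after their values were seen), the brightest of a role class without a call, genes whose probe sets disagree, and up to 3 called genes per other list, with the other called genes of those lists added after their values were seen. Role classes were assigned by hand from gene symbols. Data were simulated as normal noise over 7453 probe sets, of which 50 were changed at each fold. The observed spread of each probe set within groups was taken as its true spread. Spreads estimated from 3 arrays per group scatter more than true ones, and the effect of this on the recovery was not tested. The fit recovered 22% of 1.5-fold, 72% of 2-fold, 86% of 3-fold and 96% of 4-fold changes, with 7 of 145 calls false. The comparison itself made 1586 calls. More calls make the Benjamini-Hochberg threshold less strict, so these shares may understate its recovery. Precision is limited by 3 arrays per group. Alternatives were quantile normalization, median centring, the bacterial control scale, other pseudocounts (324 in place of 79.7, or a floor of 16.8), no filter or one at 933, eBayes without a trend or robust, arrayWeights, the muscle level as a covariate, 1 probe set per gene, and leaving out each array. Python 3.11.15 ran with matplotlib 3.10.9, scipy 1.17.1, numpy 2.4.6 and pandas 2.3.3, and R 4.3.3 with statmod 1.5.0 and limma 3.58.1.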

Additional observations from a re-analysis of the deposited data

How the results depend on the processing

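With 3 pools per group, the test recovered 22% of 1.5-fold changes on simulated data. Those data gave 145 calls against 1586 here, so that share may be too low for this comparison. Uncalled members may still differ. Turned signs are listed below only for called genes, genes whose probe sets disagree and the brightest gene of a role class without a call. Other uncalled members turned as well, such as Copa (0.09 to -0.60), Rab2a (0.03 to -0.64) and Rab9 (0.07 to -0.61) on the bacterial scale. The scale mattered most. On the bacterial control scale the members had 0 called higher, 43 lower and a median of -0.54, all probe sets 140 and 3859 (3.5% of calls higher, against 49.2%), and the related genes 0 and 63. There the sign turned for Arf1 (-0.25), Copb2 (-0.15 and -0.26), Rab11fip5 (-0.075), Rab18 (-0.14), Rab4a (-0.19), Rab8a (-0.10), Stx6 (-0.23), Vamp8 (-0.003), Sec16a (-0.48), Arf3 (-0.23), Rab10 (-0.48), Rab11a (-0.49), the uncalled Rab6a probe set (-0.65), Rab7 (-0.61), the brighter Sec14l1 probe set (-0.64), Sec22b (-0.51), Vamp4 (-0.55), Exoc4 (-0.008), Golph3 (-0.25), Stxbp2 (-0.20), Hspa5 (-0.057), Tmed7 (-0.279), Arfip2 (-0.162), Clta (-0.132) and Ap3d1 (-0.147). With the muscle level as a covariate the members had 7 higher and 1 lower (median 0.18), all probe sets 360 and 443, and the related genes 8 and 5, and the sign turned for the dimmer Rab10 probe set (0.20), the uncalled Rab6a probe set (-0.26), the brighter Sec14l1 probe set (-0.11) and the brighter Sec22b probe set (0.18). Without a filter the members had 15 higher and 3 lower and the related genes 11 and 6, and without a trend 16 and 3, and 11 and 6. Signs near 0 also turned for the dimmer Rab7 probe set (0.011 after quantile normalization, 0.07 with arrayWeights), the brighter Rab7 probe set (-0.005 with arrayWeights) and the uncalled Rab6a probe set (-0.003 after median centring). Leaving out 1 array gave 8 to 17 members higher, 3 to 8 lower, medians of 0.08 to 0.18, 434 to 745 and 507 to 896 of all probe sets, and 5 to 13 and 5 to 12 related genes. It turned the sign within these ranges for the dimmer Rab11a probe set (-0.16 to 0.054), the dimmer Rab7 probe set (-0.15 to 0.12), the brighter Rab7 probe set (-0.057 to 0.18), the brighter Sec14l1 probe set (-0.032 to 0.12), the uncalled Rab6a probe set (-0.14 to 0.12), the brighter Sec22b probe set (-0.11 to 0.037), the brighter Vamp4 probe set (-0.01 to 0.28) and Rab10os (-0.20 to 0.039). Of 376 values of called members under other settings 286 kept direction and call, 82 lost the call and 8 turned. Beyond these constructions the cause was not tested. No paired analysis was possible because the labels pair no arrays.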
